A study of Mus musculus with 2 samples.

Results

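The genes described here were 9 genes for the activation and signalling of transforming growth factor beta (TGF-β), out of 32228 genes in the deposited matrices. They were Tgfb1, the ligand, Itgb8 and Itgav, the chains of the integrin αvβ8 that frees it, the receptors Tgfbr1 and Tgfbr2, the transducers Smad2 and Smad3, and the inhibitors Smad7 and Ski. The list was chosen for what these genes do, since TGF-β directs IgA switching in B cells and keeps regulatory T cells stable, and the rule itself uses no measured value, but it was written with earlier results of these data known. Levels were read in cells with at least 1000 unique molecular identifiers (UMIs), at least 500 genes and less than 5% mitochondrial UMIs, sorted by marker genes into 11 classes. These classes held 10357 of 13923 kept cells.

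TGF-β is secreted in a latent form, wrapped in its own propeptide, and has no activity until the propeptide is pulled away. The integrin αvβ8 does this on the surface of regulatory T cells and of some dendritic cells, and GARP, the product of Lrrc32, presents the latent form on regulatory T cells. Freed TGF-β binds TGFBR2, which phosphorylates TGFBR1, which in turn phosphorylates SMAD2 and SMAD3. With SMAD4 these enter the nucleus, where SKI and SKIL hold them back, while SMAD7 is induced by the signal and blocks the receptor. In the gut the pathway is known for IgA switching, for induced regulatory T cells and Th17 cells, and for CD103, the product of Itgae, on resident T cells.

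The data were 2 10x Genomics 3′ libraries of sorted CD45+ cells from the colonic lamina propria of C57BL/6 mice with dextran sulfate sodium (DSS) colitis. One was labelled WT and the other Ring1aKO. Ring1a, gene symbol Ring1, encodes a subunit of Polycomb repressive complex 1, which binds CpG-rich promoters and keeps genes silent. Each library was made from 5 pooled mice that drank 2.5% DSS for 7 or 8 days, and the labels give an age of 8 to 10 weeks. The knockout was in the whole body, so stromal and epithelial cells of these mice carried it too. With 1 library per genotype and no replicate, genotype and library cannot be told apart, no test between genotypes was possible, and all intervals are exact 95% intervals that cover counting error only.

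The library labelled WT held 6005 kept cells with a median of 6354 UMIs, and that labelled Ring1aKO 7918 with a median of 5035. Between the libraries 11 barcodes were shared. Ring1 itself, the gene the label names, had 828 UMIs labelled WT and 816 labelled Ring1aKO over all kept cells. Scaled to depth, this was a log2 ratio of -0.18 (-0.32 to -0.04). A 3′ count checks nothing where the deleted part lies upstream of it, so the genotypes rest on the labels. In Foxp3 Treg, where the gate itself fixed Foxp3 and Cd8a, genes of regulatory T cells that the gate did not use stood at 355 and 262 UMIs per 1000000 UMIs of the class (CPM) for Il2ra, 2715 and 2627 for Ctla4 and 1059 and 556 for Ikzf2. Icos stood at 1412 and 1171 CPM, while Tnfrsf4 was higher in the library labelled Ring1aKO, at 1108 and 1363. In 3′ counting each molecule gives 1 UMI whatever its length, so levels were compared between genes as CPM. A log2 ratio below 0 means a lower level in the library labelled Ring1aKO.

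On GRCm38 the ligand and integrin genes lay at chr7:25687002-25705077 (Tgfb1, plus strand), chr12:119158022-119238802 (Itgb8, minus strand) and chr2:83724397-83806916 (Itgav, plus strand). The receptor genes lay at chr4:47353222-47414931 (Tgfbr1, plus strand) and chr9:116084293-116175360 (Tgfbr2, minus strand), Smad3 at chr9:63646767-63757994 and Ski at chr4:155154075-155222592, both on the minus strand. RefSeq promoter entries (GRCm38.p6) were at hand for 7 of the 9 genes, with 8 entries, since Tgfbr1 had a pair. In the 250 bases upstream of the start, 5 of 8 member entries were CpG rich (at least 50% GC and a CpG count at least 0.6 of that expected), and 31.0% of 32851 entries were. The SMAD-binding letters CAGAC, on either strand, stood in 3 of 8 member entries and in 42.2% of all entries. These windows are shown for Tgfb1 and Tgfbr2, the ligand and the receptor whose log2 ratios lay on opposite sides of 0 in CD4 T and CD8 T cells. Capitals mark CAGAC, which was found in the Tgfbr2 window and not in that of Tgfb1. The Tgfb1 window is chr7:25686752-25687001 on the plus strand and the Tgfbr2 window is chr9:116175364-116175613 on the minus strand, both written 5′ to 3′.
Tgfb1: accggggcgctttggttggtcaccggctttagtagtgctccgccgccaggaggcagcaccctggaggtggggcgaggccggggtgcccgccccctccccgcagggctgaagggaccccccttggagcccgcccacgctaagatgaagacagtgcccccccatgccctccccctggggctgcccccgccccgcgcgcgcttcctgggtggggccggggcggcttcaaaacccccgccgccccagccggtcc
Tgfbr2: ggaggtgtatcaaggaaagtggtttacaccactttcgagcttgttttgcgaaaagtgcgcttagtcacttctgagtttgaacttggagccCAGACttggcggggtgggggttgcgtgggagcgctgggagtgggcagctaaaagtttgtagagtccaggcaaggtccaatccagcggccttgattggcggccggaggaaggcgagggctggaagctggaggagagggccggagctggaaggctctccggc
The letters alone do not show a bound site.

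Of the 99 pairs of member and class, 83 had at least 20 UMIs over both libraries and entered the counts. The level was lower in the library labelled Ring1aKO in 56 pairs and higher in 27. A 1.5-fold difference, used here in place of a test, was passed by 15 pairs downward and 5 upward, and by 12 and 7 when each class was centred on its median gene. Of all genes, 12.5% in C1q macrophages to 33.8% in plasma cells passed it downward. Upward it was passed by 2.96% in plasma cells to 15.4% in Foxp3 Treg. The median log2 ratio over all genes ran from -0.39 in plasma cells to 0.01 in C1q macrophages. Counts of members are therefore set beside these shares by class below. The largest differences were that of Itgb8 in Foxp3 Treg, of Tgfbr1 and Smad2 in mature dendritic cells (DC) and of Itgav in cDC2. Those in the dendritic classes rest on few UMIs.

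**Figure D1:**
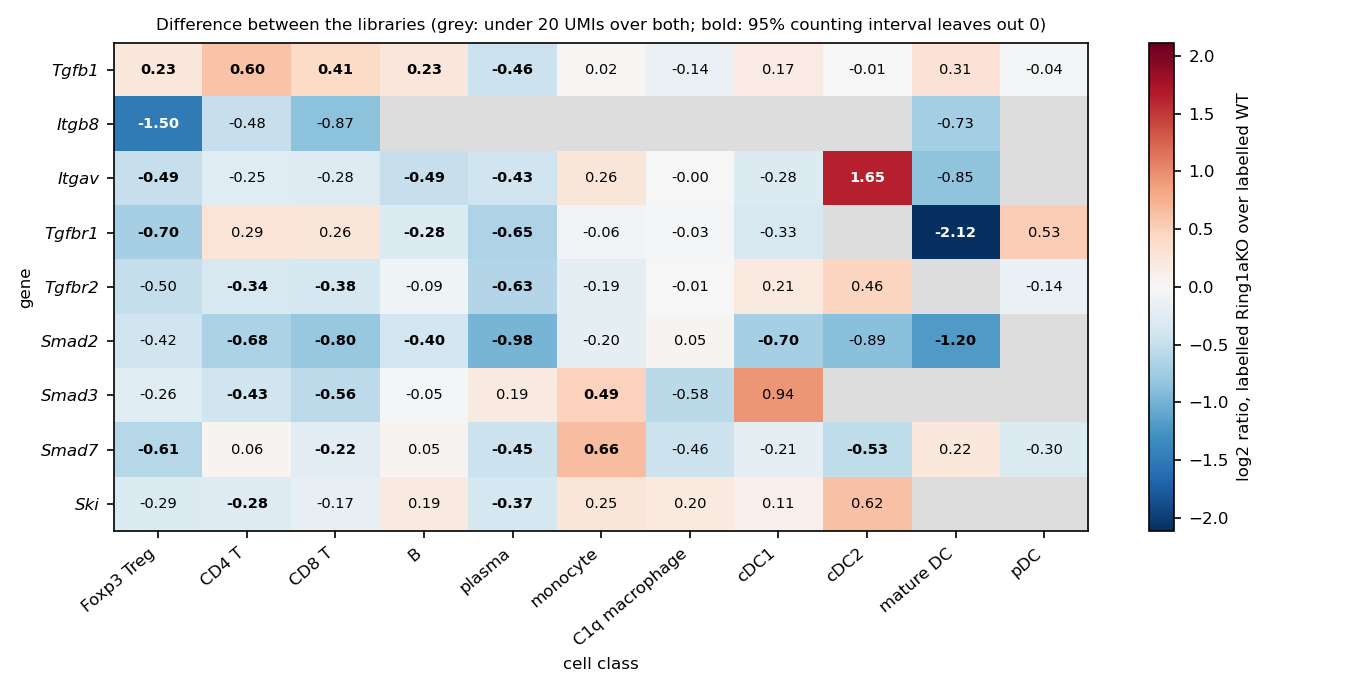
Log2 ratio of the level labelled Ring1aKO over that labelled WT for each gene (rows) and cell class (columns). Blue cells are lower and red cells higher in the library labelled Ring1aKO, grey cells had under 20 UMIs over both libraries, and bold values have a 95% counting interval that leaves out 0. Smad2 is blue in 9 of 10 classes, Itgb8 is lowest in Foxp3 Treg at -1.50, and Tgfb1 is red in CD4 T cells at 0.60.

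Among T cells the members' medians lay below those of all genes, and Tgfb1 lay above 0. Foxp3 Treg, with 215 and 242 cells, had 3 of 9 members lower and 0 higher, against 17.4% and 15.4% of 8908 genes past the same fold. The median log2 ratio of the members was -0.49, beside -0.02 over all genes. This depended on depth. In Foxp3 Treg of at least 6000 UMIs every member but Tgfb1 lay below 0. In shallower cells Itgb8, at -1.37, and Tgfbr1, at -0.69 (-1.47 to 0.06), did, and the others lay between 0.03 and 0.31. CD4 T cells without Foxp3 had 1 of 9 members lower and 1 higher, against 14.8% and 7.87% of 9415 genes, and CD8 T cells 2 of 9 members lower and 0 higher, against 15.8% and 6.09% of 9819 genes. In both of these the members' median was -0.28, with -0.07 and -0.11 over all genes. In CD4 T cells and CD8 T cells the counts of members are near what the share of all genes gives. The 3 in Foxp3 Treg were Itgb8, Tgfbr1 and Smad7. Of these, Itgb8 had already been reported by the study as reduced in regulatory T cells of Ring1aKO mice, from the same libraries. Its part in the count and in the median is therefore not an independent result.

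In the B lineage, B cells (1207 and 3640) had 0 of 8 members lower and 0 higher, against 20.1% and 4.62% of 11372 genes. Plasma cells (673 and 585) had 3 of 8 members lower and 0 higher, against 33.8% and 2.96% of 11440 genes. Their median over members, -0.46, lay next to -0.39 over all genes, so that no shift of the members beyond that of the whole class was seen.

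Monocytes (869 and 254 cells) and C1q macrophages (142 and 174) had few differences, with 0 of 8 members lower and 1 higher, against 23.8% and 7.15% of 9539 genes in the first and 0 of 8 members lower and 0 higher, against 12.5% and 12.6% of 6777 genes in the second. Median log2 ratios of the members were 0.14 and -0.02, beside -0.20 and 0.01 over all genes.

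Dendritic classes were small. For cDC1 (82 and 75 cells) there were 1 of 8 members lower and 1 higher, against 25.2% and 6.39% of 8137 genes. For cDC2 (68 and 60) the numbers were 1 of 6 members lower and 2 higher, against 20.3% and 8.89% of 6184 genes, and for mature DC (39 and 58) 4 of 6 members lower and 0 higher, against 18.3% and 13.6% of 4649 genes. Plasmacytoid DC (pDC, 34 and 21) had 0 of 4 members lower and 0 higher, against 22.3% and 11.3% of 3995 genes. The 4 members in mature DC were Itgb8, Itgav, Tgfbr1 and Smad2. Itgb8 no longer passed the fold when each gate asked for 1 more marker, and Itgav, on 18 and 13 UMIs, turned to 0.69 there. The members' medians in these classes were -0.05, 0.23, -0.79 and -0.09, beside -0.21, -0.13, -0.04 and -0.09 over all genes. Malat1, a nuclear RNA, and Huwe1, a ubiquitin ligase gene, were lower in the library labelled Ring1aKO in all 11 classes, by log2 ratios of -1.01 to -0.34 and -1.26 to -0.37, with intervals that held 0 for Huwe1 in C1q macrophages and pDC. Their part in the lower values of members was not tested. In Foxp3 Treg these ratios were -1.01 and -1.11, beside -1.50 for Itgb8.

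Tgfb1, the ligand, was highest of the 11 classes in monocytes in both libraries and was found in every class, least in plasma cells. Its level in monocytes was 458 (443 to 473) CPM labelled WT and 465 (436 to 496) labelled Ring1aKO, a log2 ratio of 0.02 (-0.08 to 0.13). C1q macrophages, pDC, cDC2 and Foxp3 Treg followed in the library labelled WT, at 377, 353, 298 and 253 CPM, each with a counting interval that overlaps that of its neighbour in this order. Plasma cells had least, 33.8 and 24.5 CPM. Cell-free barcodes, which had fewer than 100 UMIs, carried Tgfb1 at 181 and 169 CPM.

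T cells labelled Ring1aKO held more Tgfb1. In CD4 T cells it had 424 UMIs labelled WT and 543 labelled Ring1aKO, or 138 (126 to 152) and 209.9 (193 to 228) CPM, a log2 ratio of 0.60 (0.41 to 0.79). CD8 T cells had 145 (133 to 158) and 193 (179 to 207) CPM, a log2 ratio of 0.41 (0.25 to 0.57). After every cell was thinned to 1000 UMIs, Tgfb1 was detected in 10.1% (7.51 to 13.3) and 20.8% (16.8 to 25.2) of CD4 T cells, and in 11.6% (8.94 to 14.7) and 18.1% (15.0 to 21.4) of CD8 T cells. Without thinning the shares were 46.7% and 59.2% in CD4 T cells, at like median depths of 5626 and 5618.5 UMIs. In CD8 T cells they lay closer together, at 52.8% and 56.1%, with medians of 5850 and 5778.5 UMIs. CD8 T cells with Itgae, which marks resident T cells, gave 0.33 (0.10 to 0.55) and those without it 0.47 (0.23 to 0.71).

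Smaller differences in the same direction were found in Foxp3 Treg, 0.23 (0.04 to 0.41), and in B cells, 0.23 (0.14 to 0.33). Markers of B cells were also higher in T cells labelled Ring1aKO. The summed level of the 8 B cell markers was 102 and 206 CPM in CD4 T cells, 57.2 and 254 in CD8 T cells and 5544 and 6321 in B cells, with 8 of 8 detected in each. Those of the 8 monocyte markers were 740.4 and 332 in CD4 T cells and 1015 and 876 in CD8 T cells, and of the 7 plasma cell markers 1546 and 1564 and 1263 and 3413, with all detected in each. B cells had Tgfb1 at 188 and 222 CPM, and the part of B cell, monocyte and plasma cell RNA in the T cell values was not tested. Levels in mature DC, cDC1, cDC2, pDC and C1q macrophages had intervals of the log2 ratio that held 0.

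Itgb8, whose product pairs with αv to free TGF-β, was found mainly in T cells, above all in Foxp3 Treg. In Foxp3 Treg it had 155 UMIs labelled WT and 86 labelled Ring1aKO, or 102 (86.4 to 119) and 36.0 (28.8 to 44.5) CPM. The level labelled Ring1aKO was 2.82-fold lower, a log2 ratio of -1.50 (-1.90 to -1.11). Mature DC came next, at 30.7 (16.8 to 51.6) and 18.6 (9.27 to 33.2) CPM, then CD4 T cells at 12.4 and 8.89 and CD8 T cells at 6.36 and 3.48. Within CD4 T cells, the 355 and 310 cells with Il2ra, Ctla4 or Ikzf2 held 38 and 22 Itgb8 UMIs. The 99 and 70 cells with none of these genes held 0 and 1. Whether regulatory T cells with undetected Foxp3 are among the former was not tested. The interval of Foxp3 Treg stood clear of that of mature DC in the library labelled WT and overlapped it in the other. In B cells there were 1 and 2 UMIs, in plasma cells 3 and 5, in monocytes 8 and 6 and in C1q macrophages 3 and 1. None was found in cDC1, cDC2 or pDC, where 3 UMIs would have been 1.63 and 1.83 CPM in cDC1. Cell-free barcodes had 5.23 and 2.84 CPM, near the level of CD8 T cells and far below that of Foxp3 Treg.

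The UMIs of mature DC came from very few cells. In the library labelled WT 2 of 39 cells held all 14 UMIs, with 10 in 1 of them, and in the other library 1 of 58 cells held all 11. The log2 ratio there, -0.73 (-2.01 to 0.52), therefore compares 2 cells with 1. In Foxp3 Treg the UMIs were spread over 63 of 215 and 50 of 242 cells, and no cell held more than 12 and 4.

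Markers of other cells differed between the libraries in Foxp3 Treg. The 7 plasma cell markers summed to 3307 and 1356 CPM, with 7 and 6 detected, and the 8 B cell markers to 74.8 and 263, with 8 detected in each. The 8 monocyte markers summed to 1193 and 711 CPM with 8 detected in each, and the 8 C1q macrophage markers to 20.4 and 137 with 5 and 7 detected. Their part in the values of members in Foxp3 Treg was not tested. Plasma cells and B cells themselves held at most 5 Itgb8 UMIs in either library.

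Fewer Foxp3 Treg labelled Ring1aKO had Itgb8, and those that had it had less. After thinning to 1000 UMIs it was detected in 22 of 215 cells labelled WT, 10.2% (6.52 to 15.1), and in 7 of 242 labelled Ring1aKO, 2.89% (1.17 to 5.87). Without thinning the shares were 29.3% and 20.7%, although cells labelled Ring1aKO were deeper, with medians of 5490 and 6698.5 UMIs. For comparison, Itgb8 was found in 0.0829% and 0.0549% of B cells without thinning, with medians of 4208 and 4353.5 UMIs. Cells with 3 or more Itgb8 UMIs made up 10.2% and 4.96% of Foxp3 Treg.

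**Figure D2:**
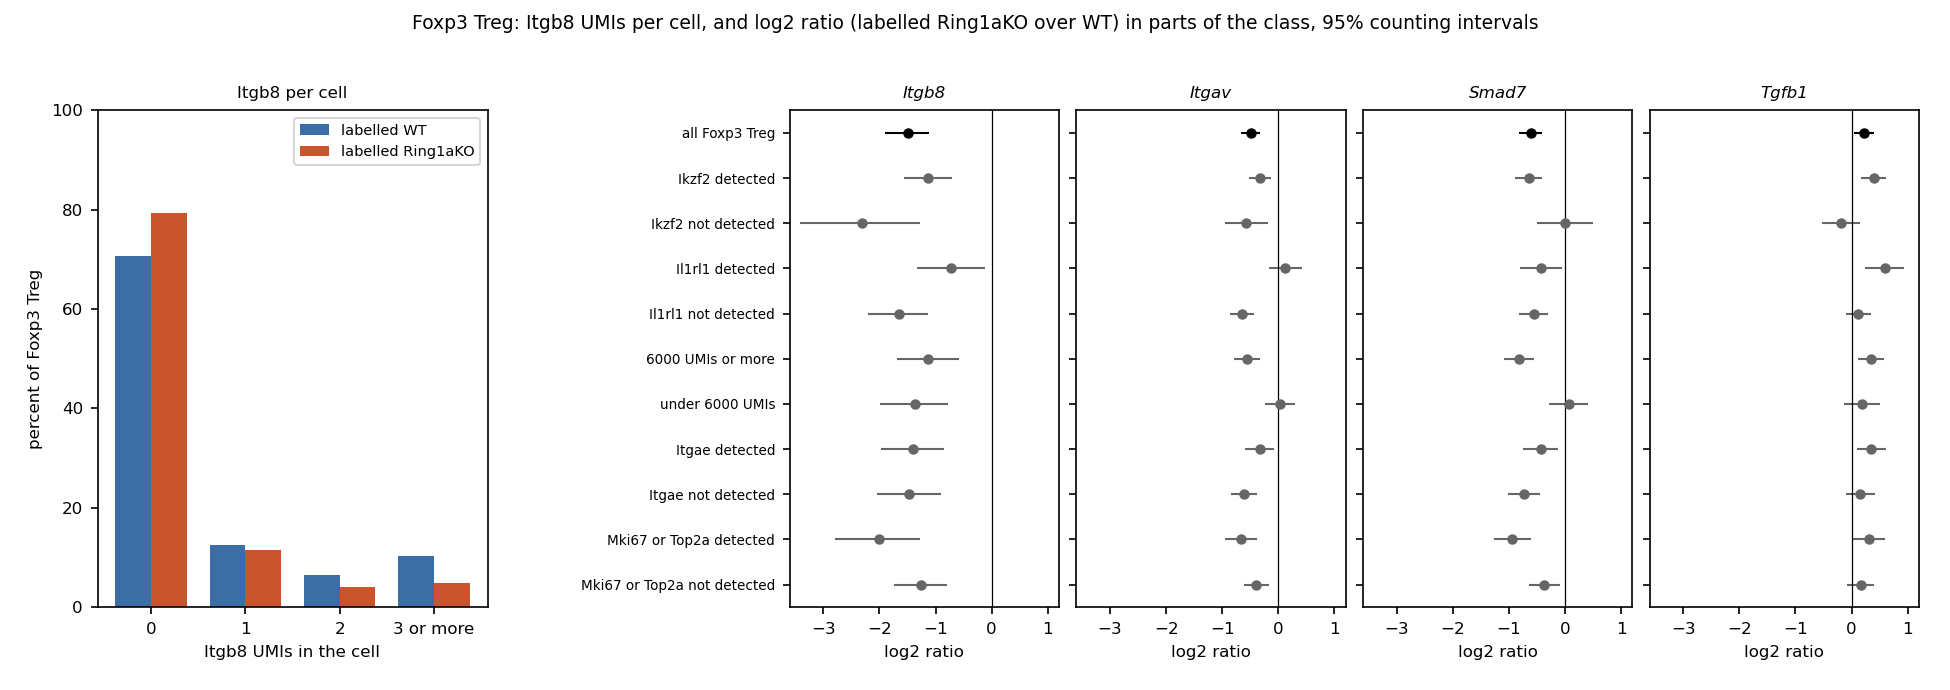
Foxp3 Treg only. The bars give the percent of cells by their number of Itgb8 UMIs in each library, where 70.7% labelled WT and 79.3% labelled Ring1aKO had 0. The other panels give the log2 ratio (labelled Ring1aKO over labelled WT) of Itgb8, Itgav, Smad7 and Tgfb1 in all Foxp3 Treg (black) and in parts of the class (grey), with 95% counting intervals. All 11 Itgb8 points lie below 0, while those of Itgav and Smad7 lie near 0 in cells under 6000 UMIs.

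Parts of the Foxp3 Treg class were compared next. Their shares differed between the libraries, with Ikzf2 detected in 167 of 215 cells labelled WT and 164 of 242 labelled Ring1aKO. The part of these shares in the Itgb8 ratio of the class was not tested. By Ikzf2, which encodes Helios, the log2 ratio of Itgb8 was -1.13 (-1.56 to -0.71) with and -2.32 (-3.42 to -1.28) without. By Il1rl1, the IL-33 receptor of tissue regulatory T cells, it was -0.72 (-1.34 to -0.12) with and -1.66 (-2.20 to -1.13) without. Cycling cells, those with Mki67 or Top2a, gave -2.01 (-2.79 to -1.27), and the others -1.27 (-1.74 to -0.80). In cells of at least 6000 UMIs it was -1.13 (-1.68 to -0.58) and in shallower cells -1.37 (-1.99 to -0.77). The ratio and its interval lay below 0 in each part, and also in cells with Itgae, -1.40 (-1.98 to -0.84), and without it, -1.47 (-2.04 to -0.90).

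Itgav, the partner chain αv, was also highest in Foxp3 Treg of the 11 classes. It had 533 and 595 UMIs there, 350.0 (321 to 381) and 249 (229.7 to 270.1) CPM, and of the 11 classes C1q macrophages were next with 122 and 122. The log2 ratio in Foxp3 Treg was -0.49 (-0.66 to -0.32). It was -0.55 (-0.78 to -0.32) in cells of at least 6000 UMIs and 0.03 (-0.24 to 0.29) in shallower cells, and over the class the ratio was -0.31 with barcodes over 5000 genes left out and -0.30 with cells averaged with equal weight. B cells had 31.1 and 22.2 CPM, a log2 ratio of -0.49 (-0.73 to -0.24), and CD4 T cells and CD8 T cells gave -0.25 (-0.57 to 0.06) and -0.28 (-0.58 to 0.02). In cDC2 the level was higher, with 10 and 27 UMIs and a log2 ratio of 1.65 (0.55 to 2.86). Outside the 11 classes Itgav was higher in ILC2 as well.

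Both chains together make the integrin. Of the Foxp3 Treg with Itgb8, 84.1% and 84.0% also had an Itgav UMI, while 74.3% and 78.1% of those without Itgb8 did. Cells with both numbered 53 of 215 labelled WT, 24.7% (19.0 to 31.0), and 42 of 242 labelled Ring1aKO, 17.4% (12.8 to 22.7), with intervals that overlap. Of these, 40 and 33 held Tgfb1 as well. In CD4 T cells 6 of 454 and 8 of 380 had both chains.

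The receptors had different patterns by class. Tgfbr2, which binds the ligand first, was highest of the 11 classes in CD4 T cells at 123 (111 to 136) and 97.0 (85.4 to 109.8) CPM. Its interval there overlaps those of CD8 T cells and pDC in both libraries and that of B cells in the one labelled Ring1aKO. Its log2 ratios were -0.34 (-0.58 to -0.11) in CD4 T cells, -0.38 (-0.60 to -0.16) in CD8 T cells and -0.09 (-0.22 to 0.04) in B cells, where it turned to 0.11 relative to the median gene. Foxp3 Treg had less of it than CD4 T cells, 41.4 (31.8 to 52.9) and 29.3 (22.9 to 37.1) CPM. Tgfbr1, the signalling chain, was highest of the 11 classes in C1q macrophages and pDC, at 111 and 108 CPM and 94.4 and 136 CPM. In Foxp3 Treg it had 81 and 78 UMIs, 53.2 (42.2 to 66.1) and 32.7 (25.8 to 40.8) CPM, a log2 ratio of -0.70 (-1.17 to -0.24). With barcodes over 5000 genes left out it no longer passed the fold. CD4 T and CD8 T cells went the other way, at 0.29 (-0.26 to 0.84) and 0.26 (-0.23 to 0.75), with intervals that hold 0. Mature DC had 20 and 6 UMIs of Tgfbr1 and a log2 ratio of -2.12 (-3.72 to -0.75), and only 2 and 3 UMIs of Tgfbr2. Of the 20 Tgfbr1 UMIs labelled WT, 10 came from 1 cell, which the interval does not take into account.

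Of the transducers, Smad2 was lower in the library labelled Ring1aKO in 9 of 10 classes and past 1.5-fold in 6. It fell short of the fold in plasma cells with cells averaged with equal weight and in cDC1 relative to the median gene, and in monocytes, at -0.20, it turned to 0.04 with cells averaged with equal weight. Levels were alike across most classes, between 19.4 and 50.5 CPM labelled WT outside plasma cells, which had 7.44. CD8 T cells had 122 and 78 UMIs, 33.7 (28.0 to 40.3) and 19.4 (15.3 to 24.2) CPM, a log2 ratio of -0.80 (-1.23 to -0.38). CD4 T cells gave -0.68 (-1.17 to -0.19), B cells -0.40 (-0.63 to -0.17), cDC1 -0.70 (-1.29 to -0.13) and mature DC -1.20 (-2.31 to -0.16). C1q macrophages were the exception at 0.05 (-0.69 to 0.80), and Foxp3 Treg gave -0.42 (-0.94 to 0.10). The classes share their library, so they are not 10 separate observations, and Malat1 and Huwe1 were lower in the same classes.

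Smad3, the other receptor-activated transducer, was highest of the 11 classes in CD4 T cells, 51.9 (44.2 to 60.7) and 38.7 (31.5 to 47.0) CPM, with Foxp3 Treg next at 40.1 and 33.5. It was not found in mature DC of either library, where 3 UMIs would have been 6.59 and 5.07 CPM. The log2 ratio was -0.43 (-0.80 to -0.06) in CD4 T cells and -0.56 (-1.02 to -0.10) in CD8 T cells, and 0.49 (0.01 to 0.96) in monocytes. In cDC1 it was 0.94 (-0.27 to 2.22) on 10 and 17 UMIs, and it turned to -0.091 when cells were averaged with equal weight.

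**Figure D3:**
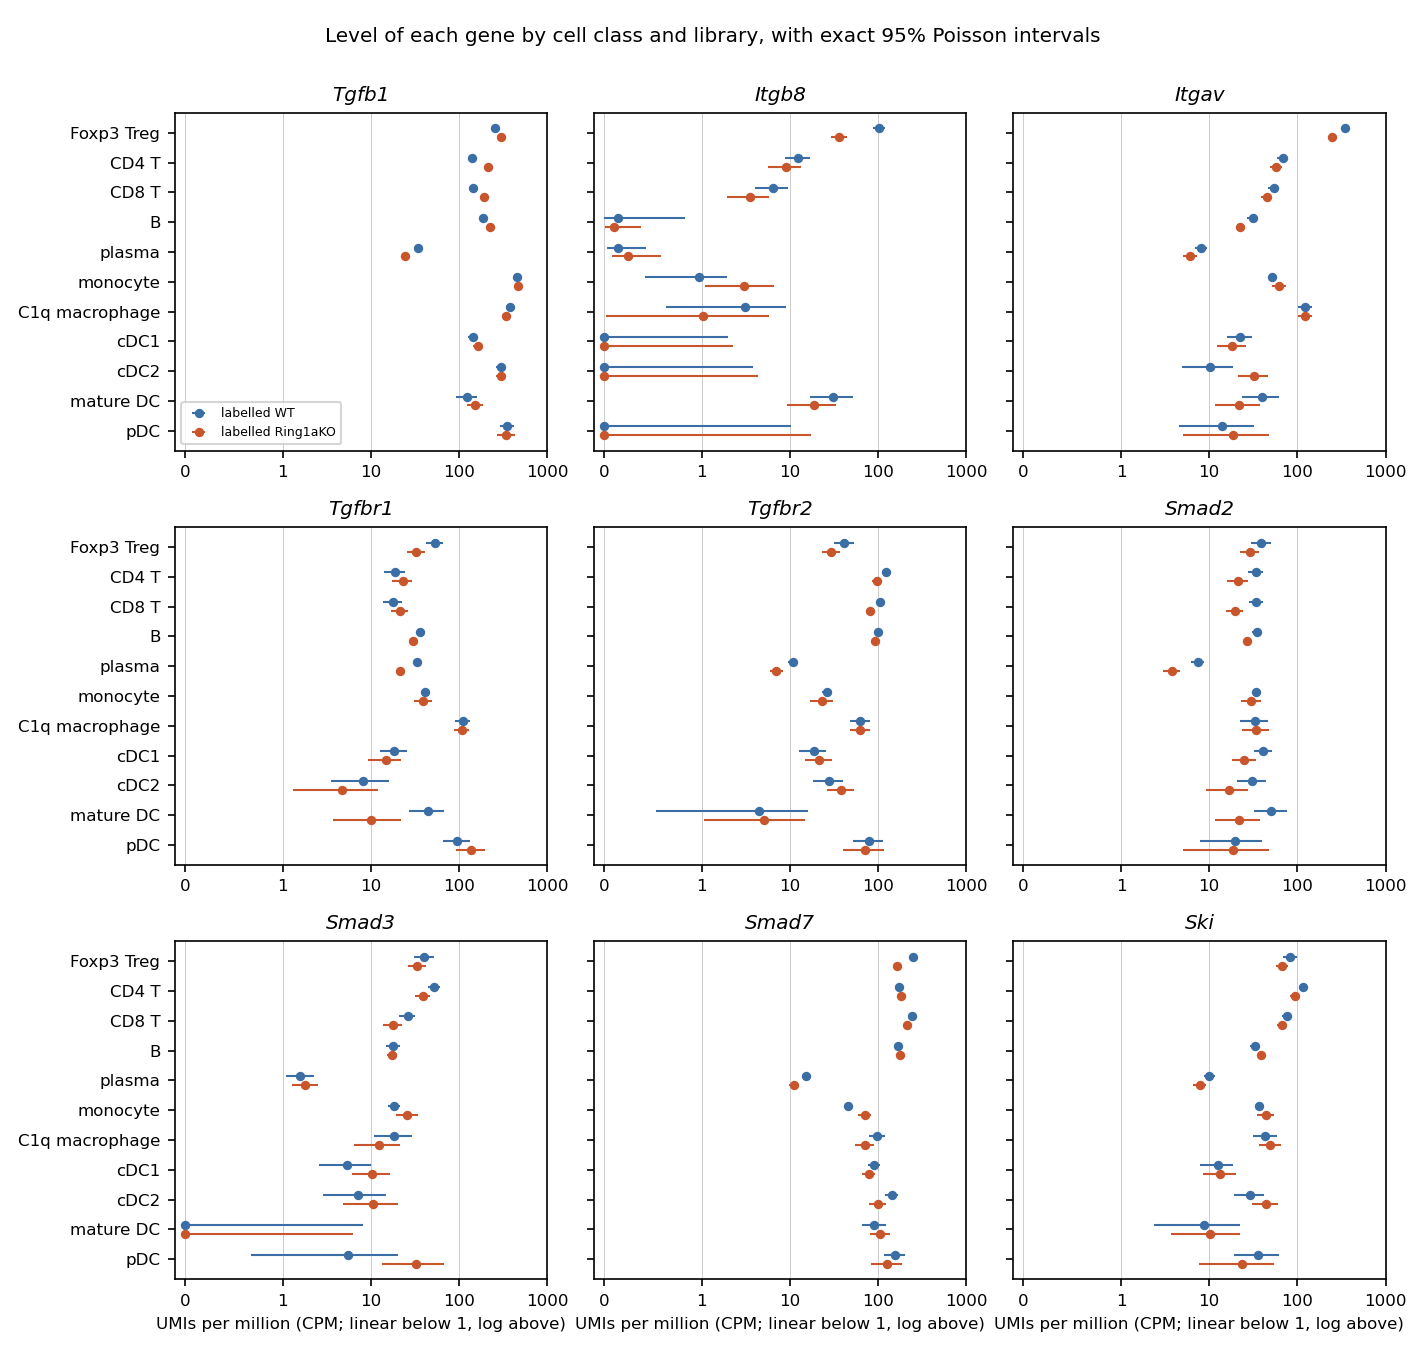
Level of each of the 9 genes in CPM (on an axis that is linear below 1 and logarithmic above) in 11 cell classes, blue for the library labelled WT and orange for that labelled Ring1aKO, with exact 95% Poisson intervals. Itgb8 and Itgav peak in Foxp3 Treg, Tgfb1 in monocytes at 458 and 465 CPM, and Tgfbr2, Smad3 and Ski in CD4 T cells, among these 11 classes.

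Smad7, which TGF-β signalling induces and which blocks the receptor, was high in T cells. In Foxp3 Treg it had 377 and 387 UMIs, 248 (223 to 274) and 162 (146 to 179) CPM, a log2 ratio of -0.61 (-0.82 to -0.40). Averaged over cells with equal weight it was -0.31, short of the fold, and it also fell short with barcodes over 5000 genes left out and, narrowly, without immunoglobulin, mitochondrial and ribosomal protein genes in the total. Of the 11 classes it was the highest in the library labelled WT, level with CD8 T cells at 244 CPM, and the fourth in the other, below CD8 T cells at 209.7, CD4 T cells at 179 and B cells at 175, the last pair with intervals that overlap its own. In Foxp3 Treg of at least 6000 UMIs the ratio was -0.82 (-1.08 to -0.55), in shallower cells 0.07 (-0.28 to 0.41). By Ikzf2 it was -0.65 (-0.89 to -0.41) with and 0.00 (-0.49 to 0.51) without. CD4 T cells without a Foxp3 UMI gave 0.06 (-0.12 to 0.24). Within these, cells with Il2ra, Ctla4 or Ikzf2, genes of activated and regulatory T cells, gave -0.08 (-0.29 to 0.13) and cells with none of them 0.68 (0.28 to 1.07).

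Monocytes went the other way for Smad7. They had 368 UMIs in 869 cells labelled WT and 142 in 254 labelled Ring1aKO, 44.8 (40.4 to 49.7) and 70.7 (59.6 to 83.4) CPM, a log2 ratio of 0.66 (0.37 to 0.94). Monocytes with a UMI of C1qa, C1qb or C1qc gave 0.78 (0.11 to 1.42) and those without one 0.62 (0.30 to 0.94). The class itself differed between the libraries, with Ly6c2, a marker of fresh monocytes, at 1218 and 282 CPM and Chil3 at 1119 and 3358, whose part in the Smad7 value was not tested. C1q macrophages gave -0.46 (-0.93 to 0.01). Ski, the nuclear corepressor of SMADs, was highest of the 11 classes in CD4 T cells, 115 (103 to 127) and 94.7 (83.2 to 107) CPM, with a log2 ratio of -0.28 (-0.52 to -0.04). Its interval held 0 in Foxp3 Treg, -0.29 (-0.64 to 0.06), and in B cells, 0.19 (-0.03 to 0.41).

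Plasma cells had lower levels of most genes in the library labelled Ring1aKO, with a median log2 ratio of -0.39 over all genes and 33.8% past the fold downward, and the members' values stand beside that shift. Tgfbr1 was the member at the highest level next to Tgfb1, with 680 and 429 UMIs, 33.7 (31.2 to 36.4) and 21.5 (19.5 to 23.7) CPM, a log2 ratio of -0.65 (-0.83 to -0.47). Tgfbr2 gave -0.63 (-0.94 to -0.31), Smad2 -0.98 (-1.40 to -0.57), Tgfb1 -0.46 (-0.63 to -0.29) and Smad7 -0.45 (-0.71 to -0.20). Immunoglobulin UMIs fill much of a plasma cell, and when these, mitochondrial and ribosomal protein genes were left out of the total the ratios were -0.29 for Tgfbr1, -0.63 for Smad2 and -0.10 for Tgfb1. Tgfbr2 was at -0.27 in that setting, short of the fold, and at -1.04 with the cell-free profile subtracted. With every cell given equal weight, Smad2 was at -0.35, also short of the fold, Itgav turned to 0.58 and Smad7 to 0.28. Relative to the median gene Ski turned to 0.02, Tgfb1 was at -0.07 and Tgfbr1 at -0.26.

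IgA plasma cells, those with most heavy-chain UMIs from Igha, numbered 643 of 673 labelled WT and 532 of 585 labelled Ring1aKO. Within them Tgfbr1 was at 34.3 and 21.7 CPM, a log2 ratio of -0.66 (-0.84 to -0.48), and Smad2 gave -0.99 (-1.42 to -0.56). The 30 and 53 other plasma cells had 16 and 35 UMIs of Tgfbr1 and a log2 ratio of -0.04 (-0.93 to 0.91).

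A list of 49 other pathway genes was read in the same way. In Foxp3 Treg 32 of them had at least 20 UMIs, with 8 at least 1.5-fold lower and 5 higher and a median log2 ratio of -0.20, beside 17.4% and 15.4% of 8908 genes and a median of -0.02 over all genes. Itgb1, a β chain that also pairs with αv, was lower at 106 and 40.2 CPM, a log2 ratio of -1.40 (-1.78 to -1.03). Itgb5, another partner of αv, was higher on 8 and 33 UMIs, 1.40 (0.25 to 2.72). Lrrc32, the carrier that presents latent TGF-β, had 125 and 87.1 CPM, a log2 ratio of -0.52 (-0.81 to -0.23) that did not pass the fold. Smad4, the common partner of SMAD2 and SMAD3, stood at 123 and 52.0 CPM, -1.25 (-1.59 to -0.91).

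Among the inhibitors, Smurf2, a ubiquitin ligase that acts on the receptor with SMAD7, gave -1.13 (-1.86 to -0.42) on 42 and 30 UMIs, and Skil, the relative of Ski, -0.64 (-0.82 to -0.45) at 324 and 209 CPM. Genes induced by TGF-β did not go one way. Itgae, which encodes the αE chain of CD103, had 158 and 73.7 CPM, a log2 ratio of -1.10 (-1.39 to -0.82). Foxp3, which defines the class, gave -0.41 (-0.55 to -0.26), but the gate asked for a Foxp3 UMI in each cell. Its value therefore depends on the gate and is no free readout. Tgfbi, which monocytes express at 1763 and 2107 CPM, gave 2.98, but its 111 UMIs labelled Ring1aKO came from 14 cells with up to 32 in 1 cell.

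Itgb1 was lower in all 11 classes and past the fold in 10. Beyond Foxp3 Treg it gave -1.53 (-1.83 to -1.23) in CD4 T cells, -1.42 (-1.67 to -1.18) in CD8 T cells, -1.18 (-1.40 to -0.97) in B cells and -1.24 (-1.44 to -1.04) in plasma cells, and in myeloid classes -0.90 (-1.10 to -0.71) in monocytes, -0.94 (-1.18 to -0.70) in cDC1 and -0.74 (-1.08 to -0.41) in cDC2. Smad4 was lower in all 11 classes, past the fold in 6. So were Skil and Usp15 of the list, past the fold in 4 and 5 classes. Thbs1, which encodes thrombospondin 1, another activator, was a gene of monocytes, at 5214 and 7430.2 CPM. Its lower values in CD8 T cells, -1.66 (-2.08 to -1.26), and plasma cells, -1.51 (-1.62 to -1.40), and those of Tgfbi there, -3.32 (-4.23 to -2.52) and -1.16 (-1.30 to -1.01), stood beside a summed monocyte marker level of 1015 and 876 CPM in CD8 T cells and 3251 and 2075 in plasma cells, whose part was not tested. In CD8 T cells labelled WT, 46 of 126 Tgfbi UMIs and 31 of 196 Thbs1 UMIs came from 1 cell each. The intervals do not take this into account. Mmp14, a membrane protease, was lower on few UMIs in CD4 T cells, -1.34 (-2.61 to -0.21), and CD8 T cells, -2.66 (-5.07 to -0.87). Acvrl1, a receptor that cDC1 carried at 89.0 and 81.7 CPM, gave -1.17 (-2.36 to 0.06) in B cells on 12 and 15 UMIs, and Itgb5 gave 1.32 (0.24 to 2.60) there on 8 and 56 UMIs. Nrros, which holds latent TGF-β on myeloid cells, stood at 153 and 159.8 CPM in C1q macrophages and 143 and 139 CPM in monocytes. Tgfb3, the other ligand with most UMIs, had 44 and 75 UMIs in B cells, -0.72 (-1.28 to -0.15).

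Of monocyte genes, Zfyve9, the adaptor that brings SMADs to the receptor, gave -1.14 (-1.76 to -0.57) on 252 and 28 UMIs. Eng, a coreceptor, gave -1.40 (-3.08 to -0.09), Bambi, a decoy receptor, -1.50 (-2.37 to -0.74), and Tab1, of the kinase branch of the pathway, -1.88 (-4.99 to 0.10) on 30 and 2 UMIs. Itgb3, a further partner of αv, was higher there on 19 and 20 UMIs, 2.11 (1.12 to 3.09). C1q macrophages had Bambi at 2.05 (0.91 to 3.38) on 8 and 33 UMIs, the reverse of monocytes. Id2, a target of the BMP and TGF-β branches, was higher in them, 241 and 503 CPM, a log2 ratio of 1.06 (0.84 to 1.29), and Nedd4l, a ubiquitin ligase, gave 1.23 (-0.24 to 2.90). In plasma cells Usp15, a deubiquitinase of the receptor complex, gave -1.07 (-1.29 to -0.85), Runx1, a transcription factor, -1.04 (-1.33 to -0.76) and Zfyve9 -2.31 (-4.31 to -0.73) on 20 and 4 UMIs. Of the list, 9 of 32 measured genes were past the fold downward and 2 upward in CD4 T cells (all genes 14.8% and 7.87%), 10 of 30 and 1 in CD8 T cells (15.8% and 6.09%), 6 of 33 and 4 in B cells (20.1% and 4.62%) and 12 of 38 and 1 in plasma cells (33.8% and 2.96%). Monocytes had 7 of 34 and 5 (23.8% and 7.15%), C1q macrophages 2 of 27 and 6 (12.5% and 12.6%), cDC1 8 of 26 and 1 (25.2% and 6.39%), cDC2 6 of 24 and 3 (20.3% and 8.89%), mature DC 8 of 20 and 4 (18.3% and 13.6%), and pDC 6 of 13 and 1 (22.3% and 11.3%), where the percents in brackets are the shares of all genes past the fold downward and upward in that class.

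The genes with levels most like those of each member were found by Pearson's r of log2(CPM + 10) over the 22 pairs of class and library. These pairs share libraries and classes, so r is given as a description. Itgb8 went with Il2ra (0.92), Tnfrsf9 (0.91), Arl5a (0.88), of which Il2ra and Tnfrsf9 are genes of activated and regulatory T cells. Itgav went with Tent5a (0.96), Cpd (0.90), Faim (0.88) and Tgfb1 with Ptpn1 (0.93), Laptm5 (0.92), Mrpl52 (0.90). For the receptors these were 1700017B05Rik (0.80), Tlr7 (0.78), Hivep3 (0.77) for Tgfbr1 and Ssh2 (0.95), Tra2b (0.89), Tsc22d2 (0.89) for Tgfbr2. Smad2 went with Tnrc18 (0.92), Tax1bp1 (0.89), Smad3 with Arid5b (0.87), Sla (0.86), Fbxo33 (0.86), Smad7 with Gas5 (0.95), Sfpq (0.95), Rpl39 (0.95) and Ski with Itpkb (0.91), Hcst (0.91), Emb (0.90).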

How the data were processed

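CD45+ cells of the colonic lamina propria were sorted, and 1 library per genotype was made from 5 pooled mice with 10x Genomics 3′ chemistry and sequenced on a NovaSeq. The authors counted UMIs with Cell Ranger and deposited raw, unfiltered UMI counts per gene and barcode, with no normalization. The submitters' processing notes name Cell Ranger 6.0.2 and mm39, while the study's methods and the matrix header name other versions and the methods name the mm10 genome, so gene coordinates come from GRCm38 (GENCODE vM21) and were not used for any count. The files held 74414511 UMIs labelled WT and 81862096 labelled Ring1aKO.

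The members and all lists were chosen with earlier results of these data known. A cell went to the marker list with the highest share of its genes detected, with at least 3 detected and a lead of 0.1 over the next list. T cells needed 2 of the shared T cell genes and were split by Foxp3, Cd4, Cd8a or Cd8b1, and Trdc. This scoring rule was set after the files were seen. Tcrg-C1, Tcrg-C2 and Tcrg-C4 of the fixed lists were not used here. No doublet caller was run. Cells with mixed markers stayed unassigned (564 and 673), and barcodes over 5000 genes were left out as an alternative. Per class, UMIs were summed and scaled to 1000000 (CPM) with exact Poisson intervals. Log2 ratios have exact intervals conditional on the counts, and shares, after thinning each cell to 1000 UMIs, exact Clopper-Pearson intervals, all at 95%. PCR and capture error are not covered. No test was made, and a gene counts as past the fold at 1.5-fold with at least 20 UMIs over both libraries.

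Genes named were the 9 members, pathway genes with at least 20 UMIs and at least 2-fold apart in Foxp3 Treg, CD4 T, CD8 T, B, plasma, monocyte or C1q macrophage classes, the gene of each role with most UMIs, and the 3 genes most like each member. Some results that this rule gives are not reported here. Lrrc32 and Foxp3 in Foxp3 Treg, and the marker genes and splits by Ikzf2, Il1rl1, Itgae, Mki67, Top2a and Igha, were added after values were seen. Intervals of the log2 ratio were checked only on simulated Poisson counts, the model they assume. That check cannot show how they hold where the UMIs of a gene are concentrated in few cells. Scripts ran in Python 3.11.15, using scipy 1.17.1, numpy 2.4.6, matplotlib 3.10.9 and pandas 2.3.3. Promoter sequences are from RefSeq. Alternatives numbered 9 planned and 3 added.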

Additional observations from a re-analysis of the deposited data

Results flagged for a closer look

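Of the members with enough UMIs, 4 had counting intervals below 0 in one class and above 0 in another. Tgfb1 had a log2 ratio of -0.46 in plasma cells and 0.60 in CD4 T cells. Itgav had -0.49 in Foxp3 Treg and 1.65 in cDC2, the latter on 10 and 27 UMIs. Smad3 had -0.56 in CD8 T cells and 0.49 in monocytes, where the interval starts at 0.01. Smad7 had -0.61 in Foxp3 Treg and 0.66 in monocytes. These differences between classes were not tested, since each class was measured once per library. The plasma value of Tgfb1 shrank to -0.10 without immunoglobulin, mitochondrial and ribosomal protein genes in the total.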

How the results depend on the processing

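The log2 ratio of Itgb8 in Foxp3 Treg, -1.50, lay between -1.51 and -1.23 under 8 alternatives, the last with barcodes over 5000 genes left out. Of 3 further alternatives chosen after seeing the data, leaving out the cell with most Itgb8 UMIs gave -1.45, and thinning every cell to 1000 UMIs gave -2.12. The median over the members in Foxp3 Treg, -0.49, moved to -0.19 when cells were averaged with equal weight. A minimum of 50 in place of 20 UMIs per gene left 9 pairs lower and 3 higher, in place of 15 and 5, by construction. The other alternatives left at most 18 lower and 7 higher. Of 664 single ratios recomputed, 634 moved by less than their counting error and 28 moved further. The remaining 2, both past the fold before, changed sign. Those were Smad3 in cDC1, -0.091 with cells averaged, and Itgav in mature DC, 0.69 with 1 more marker per gate. Some ratios short of the fold changed sign as well. With cells averaged, Itgav in plasma cells went from -0.43 to 0.58, Smad7 there from -0.45 to 0.28 and Tgfbr1 in C1q macrophages from -0.03 to 0.37. The cause was not tested. No paired analysis was possible because each genotype had a single library. Without replicates, the spread between mice is unknown, and genes under 20 UMIs in a class were not compared.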

Other observations

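Outside the 11 classes, Itgb8 was found in 1 of 122 and 1 of 220 Trdc T cells and in 1 of 57 and 0 of 62 ILC3. Over all kept cells it had 391 UMIs labelled WT and 206 labelled Ring1aKO, more than all these classes hold together. The rest lay in T cells of no T cell class, unassigned cells or non-immune cells, where members were not read. Itgav was detected, after thinning to 1000 UMIs, in 26.3% (15.5 to 39.7) and 14.5% (6.86 to 25.8) of ILC3 in the libraries labelled WT and Ring1aKO, beside 31.2% and 26.9% of Foxp3 Treg. Over all UMIs of ILC3 its level was 229.5 and 203 CPM, a log2 ratio of -0.17 (-0.59 to 0.24), with intervals that overlap for both measures. ILC2 had 85 and 73 UMIs of Itgav, 109 and 209 CPM, a log2 ratio of 0.93 (0.46 to 1.40). Smad3 was at 71.3 and 71.7 CPM in NK and ILC1 cells and at 59.7 and 79.0 in ILC3. Smad2 in Trdc T cells had 41 and 28 UMIs and a log2 ratio of -1.19 (-1.94 to -0.46). Tgfb1 in ILC2 had 117 and 84 UMIs, 151 and 240 CPM, a log2 ratio of 0.67 (0.25 to 1.09). In ILC3 it gave 0.57 (0.19 to 0.97) and in Trdc T cells 0.26 (0.01 to 0.51). Its intervals held 0 in NK and ILC1 cells, neutrophils and mast cells.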
